A study of Mus musculus with 18 samples.

Results

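Genes whose symbols begin with Kcn encode the pore-forming and auxiliary subunits of potassium channels. Their transcripts were followed in 2 brain regions of control mice and of mice given a paw injection that causes pain. The regions were the BNST (bed nucleus of the stria terminalis) and the mPFC (here the prelimbic medial prefrontal cortex). The members are the protein-coding genes with such a symbol that had at least 10 counts in at least 3 of the 18 libraries, without Kcne2, Kcnj13 and Kcnj8. This gave 80 of the 94 protein-coding Kcn genes, out of 55401 gene identifiers in all, and 11 others were below the count minimum. All mice were male wild-type C57BL/6 animals, 6 to 8 weeks old by the study's methods. The formalin group received 10 µL of 1% formalin in the plantar hind paw and was sampled at 24 h, the group given CFA (complete Freund's adjuvant, an oil emulsion that causes lasting inflammation) received 10 µL of 50% CFA and was sampled at 72 h, and the control group had no injection by the methods, although the study elsewhere calls it sham-treated. Agent and sampling time therefore changed together. In the study, mechanical allodynia (pain from touch) after formalin passed within hours, before the sampling at 24 h. After CFA it lasted beyond the sampling at 72 h. Each of the 6 combinations of region and condition had 3 libraries, each from the hand-dissected tissue of 1 brain, so no single cell type was isolated.

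Potassium channels let potassium leave a neuron and so set its resting potential, end its action potentials and limit how often it fires. Voltage-gated channels are built from Kcna, Kcnb, Kcnc, Kcnd, Kcnq and Kcnh subunits, inward rectifiers from Kcnj, background leak channels from Kcnk, and calcium- or sodium-activated channels from Kcnma, Kcnn and Kcnt. Kcnf, Kcng, Kcns and Kcnv subunits form no channel alone but change the gating of Kcnb channels, while Kcnab, Kcnip, Kcne and Kcnmb genes encode auxiliary subunits. Glial cells also use them, chiefly the inward rectifiers that clear potassium from the extracellular space.

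The libraries held 14781315 to 23408503 counts, of which the 80 members took 0.408% to 0.704%. A gene was called when edgeR's quasi-likelihood test gave a Benjamini-Hochberg adjusted p under 0.05 over all 18994 genes tested and the absolute log2 fold change was above 0.5. Of the members, 79 were tested and Kcnv2 was too low. Levels of a gene are given as CPM, its counts scaled by the library size with TMM factors, and different genes are compared only in TPM, which also divides by exon length. Markers of cortical pyramidal neurons separated the regions, with summed levels of 2065 to 2566 CPM in the 9 mPFC libraries and 61.7 to 535 CPM in the 9 BNST libraries, the highest in formalin replicate 1. The BNST groups also differed in markers of neighbouring tissue. Choroid plexus markers summed to 34.0 to 722 CPM in control, 2862 to 8636 CPM after formalin, and 214, 17444 and 175 CPM after CFA, where replicate 2 stood apart. In the column names of the study's supplementary tables, BNST control replicates 1 and 2 carried L1, BNST formalin replicate 1 carried L3 and all other libraries L2. These marks were read here as lanes 1, 3 and 2, which no label states. In bulk tissue, fewer cells of a type and less RNA per cell cannot be told apart.

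In control mice the potassium channel genes covered a wide range of levels. Summed over the members, they reached 2830 to 3599 TPM in the BNST and 3818 to 4440 TPM in the mPFC, so the control libraries of the regions did not overlap. In both regions 51 members had a mean of at least 10 TPM, while 3 stayed below 1 TPM in both. The highest in the BNST was Kcnj10, the inward rectifier of astrocytes that buffers extracellular potassium, at 249 ± 49.2 TPM (SD, n = 3), followed by Kcnip2, a calcium-binding partner of Kcnd channels, at 212 ± 11.7 TPM. Their library ranges overlapped, and the next in order were Kcnab2 at 157 ± 29.4 TPM and Kcnj4 at 148 ± 44.95 TPM, which overlapped each other and lay below Kcnip2 in every library. In the mPFC the order began with Kcnab2, a beta subunit of Kcna channels, at 293 ± 23.4 TPM, and Kcnj4, a strong inward rectifier, at 247 ± 25.2 TPM.

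By the mean over all 18 libraries the leading gene was Kcna2 among the Shaker-type channels (mean 97.4 TPM), Kcnc1 among the fast delayed rectifiers (83.5 TPM) and Kcnd2 among the A-type channels (92.2 TPM). Kcnh3 led the ether-a-go-go family (85.4 TPM) and Kcnf1 the silent subunits (121 TPM). Kcnj10 led the inward rectifiers (186 TPM), Kcnk1 the leak channels (133 TPM), Kcnma1 the calcium-activated genes with their subunits (72.9 TPM) and Kcnt1 the sodium-activated pair with Kcnu1 (68.7 TPM). Among auxiliary genes, Kcnab2 (225 TPM) and Kcnip3 (130.4 TPM) led their families, Kcne1l stood at 11.2 TPM, and Kcnrg, a cytosolic relative that binds channel subunits, at 3.06 TPM. The leading gene differed between the regions in 4 of these families. In BNST control libraries the mean of Kcnh2 (63.6 TPM) was above that of Kcnh3 (42.5 TPM), and Kcnip2 (212 TPM) was above Kcnip3 (92.9 TPM). In mPFC control libraries Kcnc4 (121 TPM) was above Kcnc1 (95.8 TPM), and Kcnj4 (247 TPM) and Kcnj9 (185 TPM) were above Kcnj10 (144 TPM).

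Between the regions of control mice, 50 of the 79 tested members were called, 18 higher and 32 lower in the BNST. Over all genes tested the share was 26.6%, with 14.7% higher and 12% lower, against 22.8% and 40.5% of the members. The 22.8% includes 4 members that met the count minimum through the BNST libraries alone. The median log2 fold change, BNST over mPFC, was −0.46 over the members and 0.04 over all genes. Across all 9 BNST and 9 mPFC libraries, treated mice included, 41 members did not overlap, 12 with the BNST above and 29 with the mPFC above, where 11.7% and 11.8% of all genes did so, or 23.5% in all. Between the 6 control libraries 56 members (70.9%) and 48.5% of all genes did not overlap. The 12, the 41 and the 56 each include the same 4 members that met the count minimum through the BNST libraries alone. Among the lower members in the BNST were 5 of 10 Kcnk genes, 5 of 11 Kcnj genes and 4 of 9 silent subunit genes. The tissue markers differed as well, with 8 of 8 striatal and 5 of 5 oligodendrocyte markers higher and 7 of 7 pyramidal neuron markers lower in the BNST, and their part in the channel differences was not tested.

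**Figure D1:**
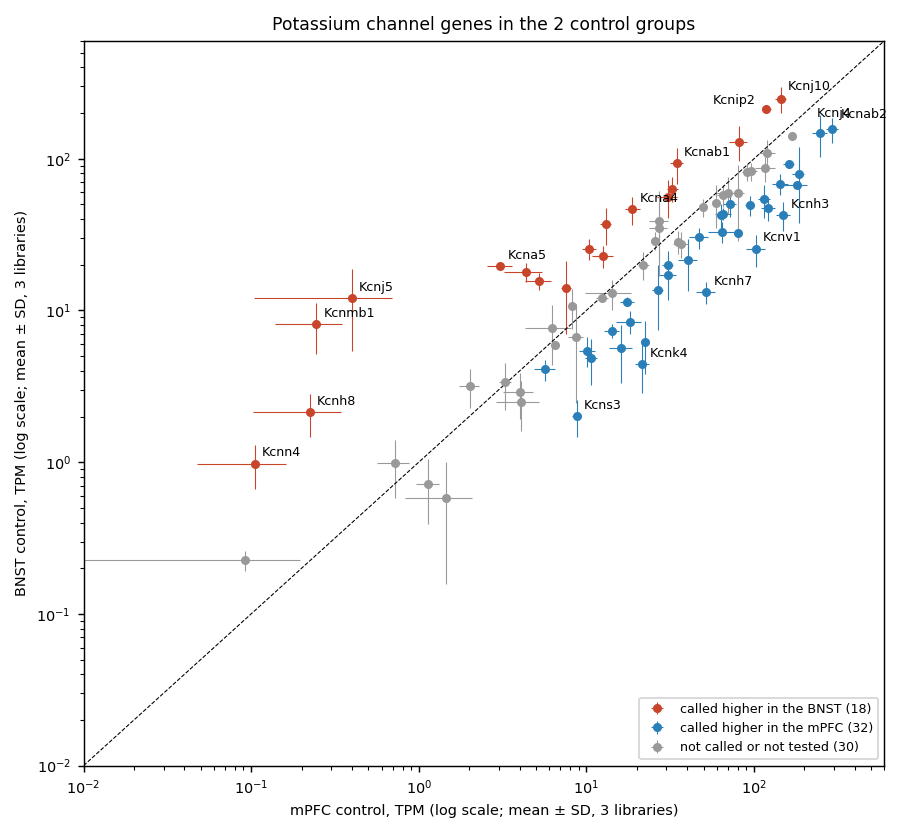
Mean level of each of the 80 potassium channel genes in the control mice, BNST (vertical axis) against mPFC (horizontal axis), in TPM on log scales. Points are means and bars ± SD of 3 libraries (a lower bar that would pass 0 is cut short), and the dashed line marks equal levels. Kcnmb1 and Kcnj5 lie far above the line, and most of the coloured points, 32 of 50, lie below it.

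Kcnmb1, Kcnj5, Kcnh8 and Kcnn4 met the count minimum through the BNST libraries alone, so the choice of members favoured a higher level there, and their values are a description. They are 4 of the 18 called higher, and the other 14 and all 32 lower members met the minimum in each region. Kcnmb1, a beta subunit of BK channels best known from smooth muscle, held 10.01, 4.93 and 9.91 CPM in the BNST control libraries (87 to 162 counts). Its mPFC control libraries held 0.158, 0.247 and 0.382 CPM (3 to 7 counts, log2 fold change 4.95, SE 0.40). Kcnj5, a subunit of G protein-gated inward rectifiers, had 19.2, 17.97 and 4.83 CPM in the BNST. In the mPFC it had 0.841, 0.148 and 0.436 CPM (log2 fold change 4.88, SE 0.64). The regions did not overlap for either gene, although BNST control replicate 3, the control of lane 2, was well below the other 2 for Kcnj5. Kcna5, a Shaker-type delayed rectifier, measured 13.9, 14 and 13.2 CPM against 2.26, 1.88 and 2.62 CPM, a difference of 2.61 ± 0.23 (SE) on the log2 scale. For Kcne1l, which encodes a small auxiliary subunit, the libraries gave 6.12, 6.58 and 7.43 CPM in the BNST and 2.05, 1.23 and 1.85 CPM in the mPFC. Both genes were thus higher in each BNST control library than in any mPFC control library. Kcnh8 and Kcnn4, the intermediate-conductance calcium-activated channel, were also called higher (3.14 and 3.06 on the log2 scale) from 14 to 48 counts a library in the BNST and 1 to 8 in the mPFC.

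The other members called higher in the BNST were expressed in both regions. Kcnk13, a leak channel of microglia, reached 13.3, 12.6 and 9.78 CPM in the BNST and 3.47, 4.05 and 4.96 CPM in the mPFC (log2 fold change 1.52, SE 0.15, adjusted p = 5.8e-07). Kcnn3, a small-conductance calcium-activated channel that follows action potentials with hyperpolarization, reached 86.5, 76.8 and 119 against 36.6, 32.3 and 35.97 CPM (log2 fold change 1.43, SE 0.15, adjusted p = 1.2e-06). Kcnab1, the beta subunit that speeds inactivation of Kcna channels, had 184, 259.7 and 144 CPM in the BNST and 83.2, 73.5 and 71.7 CPM in the mPFC. Its A-type partner Kcna4 had 55.3, 68.2 and 41.5 and 25.8, 22.4 and 21.6 CPM. In both genes every BNST control library lay above every mPFC control library, with log2 fold changes of 1.37 and 1.24. Kcnip1, another partner of Kcnd channels, was measured at 42.1, 32.3 and 40.7 against 17.7, 14.8 and 17.1 CPM (log2 fold change 1.21). The cardiac and neuronal channel Kcnh2 gave 85.3, 84.6 and 56.2 against 41.97, 42.3 and 36.95 CPM (log2 fold change 0.90). Kcnk2, the mechanosensitive leak channel TREK, gave 63.2, 91 and 49.8 against 42.03, 41.1 and 32.8 CPM. Its groups did not overlap (log2 fold change 0.82). Kcng2, a silent subunit, gave 12.7, 4.42 and 13.3 against 6.04, 6.07 and 5.34 CPM, and because of BNST replicate 2 the groups overlapped. Its call (adjusted p = 0.047) was lost when 1 library was left out in 15 of 18 cases. The remaining called members were Kcnd2 (0.61, groups overlapping), Kcnj10 (0.72), Kcnip2 (0.76) and Kcnj2 (0.78).

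On the mPFC-higher side, Kcnk4, a leak channel opened by membrane stretch, had 4.57, 6.75 and 3.16 CPM in the BNST and 26.5, 25.3 and 22.1 CPM in the mPFC (log2 fold change −2.35, SE 0.22, adjusted p = 3.9e-07). The silent subunit genes Kcns3, at 1.67, 1.98 and 1.05 against 7.56, 6.96 and 6.76 CPM, and Kcnv1, at 25.5, 37.2 and 23.2 against 130.3, 129 and 102 CPM, differed by −2.17 and −2.07 on the log2 scale. All 3 genes were lower in each BNST control library than in any mPFC control library. The ether-a-go-go genes Kcnh7, with 53.9, 56.02 and 38.1 against 215, 219 and 173 CPM, and Kcnh3, with 61.5, 73.9 and 44.3 against 225, 239 and 196 CPM, differed by −2.03 and −1.87. Kcnmb4, the beta subunit of neuronal BK channels, gave 4.70, 7.20 and 3.16 against 19.2, 19.7 and 18.04 CPM (log2 fold change −1.91), the opposite order to Kcnmb1.

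The G protein-gated inward rectifiers of cortical neurons were lower in the BNST as a group of 3, with Kcnj6 at 10.4, 6.58 and 14.4 against 35.6, 33.3 and 26 CPM (−1.60 on the log2 scale), Kcnj9 at 81.5, 129 and 38.8 against 218, 203 and 187 CPM (−1.28) and Kcnj3 at −1.17. Their relative Kcnj5 was the gene that ran the other way. The silent subunit Kcnf1 had 80.7, 82.4 and 72.9 CPM in the BNST and 257, 210.2 and 193 CPM in the mPFC (log2 fold change −1.48, SE 0.10, adjusted p = 8.2e-09). Kcnc4, an A-type member of the fast Kcnc family, had 47.7, 48.3 and 31.9 and 123, 116 and 103 CPM (log2 fold change −1.42). The acid-sensitive leak channel Kcnk9 had 93.6, 99.4 and 98.5 and 252, 267 and 245 CPM, and in these 3 genes no libraries overlapped (log2 fold change −1.39 for Kcnk9). A further 19 lower members ran from −1.17 (Kcns1) to −0.55 (Kcnk6). Leaving out each library in turn gave 48 to 51 called members. With the animal number as a block 48 were called, and Kcnt2 (adjusted p = 0.06), Kcnk6 (adjusted p = 0.1) and Kcng2 (adjusted p = 0.45) were not.

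After CFA, 21 of 79 tested members were called in the BNST, 15 lower and 6 higher than in control, where 11.9% of all genes were called, 7.06% lower and 4.89% higher. The members' shares were 19% and 7.59%. The genes that fell were of several channel types, among them an ether-a-go-go pair (Kcnh4, Kcnh3), silent subunits (Kcng3, Kcnv1, Kcng1), inward rectifiers (Kcnj4, Kcnj2), and A-type channels with their partners (Kcna4, Kcnd1, Kcnip2, Kcnab1), and with them Kcnq5, Kcnk2 and Kcnt1. Kcng4, Kcnmb2, Kcnk4, Kcnab3, Kcnk1 and Kcnj16 rose. When the BNST libraries were fitted alone, Kcnmb2, Kcnk4, Kcnab3 and Kcnk1 lost their calls, as did Kcnd1 among the falls. With only the control and CFA libraries of the BNST fitted, Kcnj16 lost its call too, so of the rises only Kcng4 kept it. The median log2 fold change over the members was 0.11, with 44 above 0 and 35 below, beside 0.01 over all genes. Control and CFA libraries did not overlap in 26 members (32.9%) and in 31.5% of all genes.

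Kcnh4 changed most. This gene of the ELK branch of ether-a-go-go channels (ENSMUSG00000035355.15, GRCm38 chr11:100740376-100759942, minus strand) held 18.8, 24.2 and 14.98 CPM in the control libraries, 11.7, 16.5 and 12.8 CPM after formalin and 3.31, 2.81 and 2.72 CPM after CFA. The CFA libraries were all below the other 6, and CFA and control differed 6.57-fold (log2 fold change −2.72, SE 0.17, adjusted p = 6.7e-08). Its close relative Kcnh3 (chr15:99224861-99242817, plus strand) had 61.5, 73.9 and 44.3 CPM in control, 51.97, 46.3 and 37.9 CPM after formalin and 17.7, 20 and 13.99 CPM after CFA. Again no CFA library reached the level of any other BNST library (log2 fold change −1.80, SE 0.17, adjusted p = 5.4e-06). The other 6 Kcnh genes were not called, the lowest being Kcnh6 at −0.53 (adjusted p = 0.065).

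Silent subunits moved both ways. Kcng3 (chr17:83585957-83631895, minus strand) fell from 3.89, 3.23 and 9.10 CPM in control to 1.55, 1.43 and 1.22 CPM after CFA (log2 fold change −1.95, SE 0.33, adjusted p = 0.00052), with 5.24, 3.85 and 3.32 CPM after formalin. It was a low gene, with 26 to 29 counts in each CFA library. Kcnv1 (chr15:45106284-45114920, minus strand) fell from 25.5, 37.2 and 23.2 to 10.7, 11.9 and 7.61 CPM (log2 fold change −1.52, SE 0.28, adjusted p = 0.0019) and Kcng1 (chr2:168260117-168281736, minus strand) from 28.8, 25.9 and 34.98 to 12.2, 15.1 and 11.5 CPM (log2 fold change −1.21, SE 0.15, adjusted p = 3e-05). In these 3 genes the control and CFA libraries did not overlap. Kcng4 (chr8:119623854-119635680, minus strand) went the other way and had the largest rise of the called members, from 10.4, 7.20 and 3.90 CPM to 19.3, 22.6 and 26.95 CPM (log2 fold change 1.68, SE 0.31, adjusted p = 0.0012). Every CFA library lay above every control and formalin library. The 5 other tested genes of this family were not called.

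Of the 11 tested inward rectifiers, Kcnj4 and Kcnj2 fell, Kcnj16 rose and 8 were not called. Kcnj4 (chr15:79483714-79505241, minus strand) and Kcnj2 (chr11:111066164-111076821, plus strand) encode strong rectifiers that hold neurons near their resting potential. Kcnj4 fell from 85.3, 99.9 and 49.3 CPM to 23.3, 25.8 and 14.9 CPM (log2 fold change −1.88, SE 0.23, adjusted p = 6.9e-05), with 66.5, 58.4 and 48.7 CPM after formalin. Kcnj2 fell from 30.5, 36.1 and 24.02 to 11.9, 12.02 and 7.28 CPM (log2 fold change −1.54, SE 0.19, adjusted p = 2.8e-05), with 21.2, 18.3 and 16.8 CPM after formalin. For both genes the CFA libraries were below all others of the region. Kcnj16 (chr11:110968033-111027968, plus strand), which encodes a partner of Kcnj10 in glia, rose from 29.7, 24.04 and 29.04 to 45.03, 33.2 and 44.9 CPM (log2 fold change 0.57, SE 0.12, adjusted p = 0.0029). Its CFA libraries lay above the control libraries, and without control replicate 2 the estimate, 0.49, no longer passed the minimum change.

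Kcnq5, a subunit of M-channels, also fell. These channels close when neurons are stimulated through muscarinic receptors, which raises excitability. Kcnq5 (chr1:21398403-21961942, minus strand) held 74.3, 89.2 and 78.7 CPM in control, 75.01, 61.5 and 50.1 CPM after formalin and 31.2, 34.7 and 28.5 CPM after CFA (log2 fold change −1.36, SE 0.12, adjusted p = 1.4e-06). Its CFA libraries lay below the other 6 of the region. Kcnq3, another M-channel subunit, had a log2 fold change of −0.34 (adjusted p = 0.21).

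A-type current, which delays firing, is carried by Kcnd and Kcna4 channels and shaped by Kcnip and Kcnab subunits. Kcnip2 (chr19:45791839-45816061, minus strand) held 175, 180.3 and 182 CPM in control, 147, 137 and 102 CPM after formalin and 75.4, 68.9 and 66.7 CPM after CFA (log2 fold change −1.35, SE 0.11, adjusted p = 4.9e-07). None of these 3 groups overlapped another. Kcnab1 (chr3:65109384-65378223, plus strand) went from 184, 259.7 and 144 CPM to 96.3, 72.3 and 86.4 CPM (log2 fold change −1.21, SE 0.17, adjusted p = 0.00013). Kcna4 (chr2:107290639-107298502, plus strand) went from 55.3, 68.2 and 41.5 to 33.4, 27.6 and 26.9 CPM (log2 fold change −0.91, SE 0.15, adjusted p = 0.00039). Control and CFA libraries did not overlap for these genes. Kcnd1 was the weakest of the 15 at −0.50 ± 0.14 (SE) and lost its call when any of 4 libraries was left out, while Kcnd2 (−0.33) and Kcnd3 (0.19) were not called. Kcnab3 (21.6, 13.6 and 9.97 CPM in control and 28.6, 21.1 and 31.3 CPM after CFA) was called higher (log2 fold change 0.84, SE 0.22, adjusted p = 0.012) although its groups overlapped, since control replicate 1 was above CFA replicate 2.

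Leak channels split as well. Kcnk2 (chr1:189207930-189402273, minus strand) fell from 63.2, 91 and 49.8 CPM to 32.1, 31.1 and 31.9 CPM (log2 fold change −1.10, SE 0.16, adjusted p = 0.00014), and its 3 CFA libraries lay below the other 6 BNST libraries. Kcnk4 (chr19:6923966-6934515, minus strand) rose from 4.57, 6.75 and 3.16 to 6.84, 8.77 and 12.1 CPM (log2 fold change 0.93, SE 0.22, adjusted p = 0.0072). Kcnk1 (chr8:125995170-126030685, plus strand), a weakly conducting channel of neurons and glia, rose from 58.96, 74.8 and 44.6 to 82.2, 129 and 78.2 CPM (log2 fold change 0.70, SE 0.18, adjusted p = 0.014). Its highest library was CFA replicate 2, the one with high choroid plexus markers, and without that library the call was lost, as it was without control replicate 3. Of the calcium- and sodium-activated genes, Kcnt1 (chr2:25863734-25918273, plus strand), which encodes the sodium-activated channel Slack, fell from 165, 201 and 199 to 106, 76.1 and 124 CPM (log2 fold change −0.88, SE 0.13, adjusted p = 0.00024). Kcnmb2 (chr3:31902507-32200180, plus strand), a BK beta subunit that makes the channel inactivate, was called higher from 2.97, 2.32 and 1.36 to 6.95, 2.91 and 6.81 CPM (log2 fold change 1.32, SE 0.32, adjusted p = 0.0077), with CFA replicate 2 inside the range of control. Of the other 7 genes of the BK and small-conductance families none was called, and Kcnma1, the BK pore, had a log2 fold change of 0.42.

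**Figure D2:**
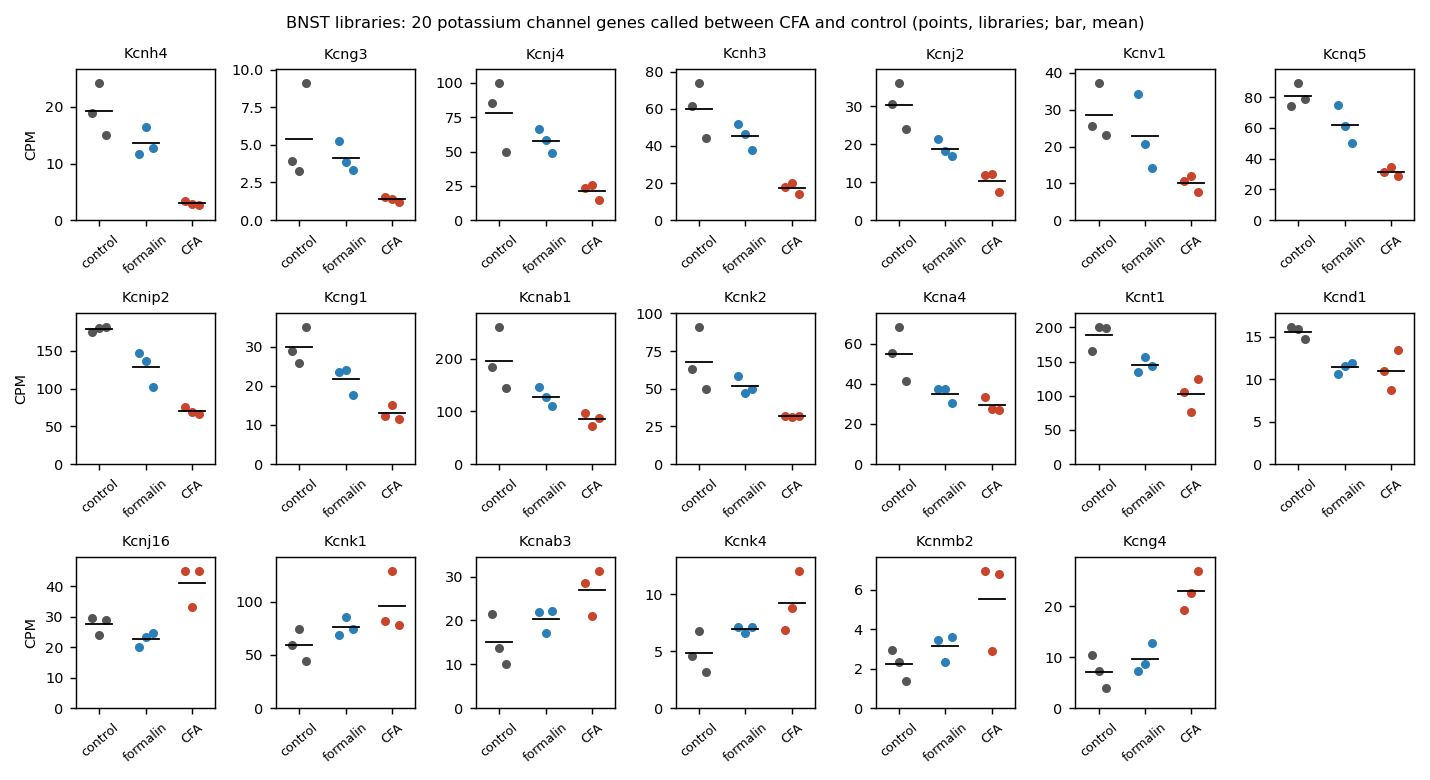
Level in CPM (vertical axes, from 0) of 20 of the 21 potassium channel genes called between CFA and control in the BNST, by group. Each point is 1 library and each bar the mean of 3, and in the 14 genes shown that fell every CFA point lies below every control point.

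Members that stayed below the thresholds were 58 in this comparison. They ran from −0.53 (Kcnh6) to 1.65 (Kcne4, adjusted p = 0.057, at most 1.53 CPM in any BNST library). All 4 Kcnc genes and all 4 Kcnn genes were among them. Without a minimum change 26 members passed. When edgeR's glmTreat tested against the minimum itself, 12 passed, with Kcng4 the only rise among them. In lane 2 alone, with control replicate 3 as the only control of the region, 38 were called, 21 higher and 17 lower, of which 19 were among the 21.

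Marker sums of other brain regions also differed in these libraries. Those of striatum and habenula did not overlap between control and CFA, while those of thalamus and hypothalamus lay mostly higher after CFA but overlapped. The striatal list (8 genes, among them Drd1, Drd2 and Adora2a) summed to 1746, 2269 and 980.1 CPM in control, 1011, 1258 and 900.2 CPM after formalin and 340.1, 524 and 181 CPM after CFA, with 7 of 8 genes called lower after CFA. Habenular markers summed to 13.1 to 35.5 CPM in control and 58.9 to 115 CPM after CFA, with 5 of 6 called higher, and Pou4f1 was at 0 counts in control replicates 1 and 3. Thalamic markers ran from 279 to 704 CPM in control and from 628 to 1087 CPM after CFA (2 of 5 called higher), hypothalamic ones from 7.86 to 40.1 and from 35.0 to 107 CPM (2 of 5 tested). Of the other lists, 1 of 7 GABAergic neuron markers was higher and 1 lower, 1 of 5 astrocyte and 1 of 7 choroid plexus markers were higher, 1 of 4 mural cell markers was lower, and 0 of the pyramidal neuron, oligodendrocyte, microglia and endothelium markers were called. Beyond the striatal ratio and covariate given next, the part of these tissues in the channel results was not tested.

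Per 1000 CPM of striatal markers, 11 of the 15 genes that fell overlapped between CFA and control libraries. The striatal sum itself fell after CFA, so a gene that fell less than the sum lies higher on this ratio. Overlap on it does not mean equal levels. Kcnt1, which overlapped, stood at 94.4, 88.4 and 203 in control and 312, 145 and 685 after CFA. Kcnh4 then stood at 10.8, 10.7 and 15.3 in control and 9.74, 5.36 and 15.03 after CFA. Kcnj4 stood at 48.9, 44.03 and 50.3 in control and 68.6, 49.1 and 82.1 after CFA. Of the others, Kcna4, Kcnd1 and Kcnk2 did not overlap and lay higher after CFA on this ratio, with Kcnk2 at 36.2, 40.1 and 50.9 and 94.3, 59.3 and 176. Kcnd2, Kcnn3 and Kcnip1, which were not called after CFA, also lay higher on it without overlap. Kcnd2 stood at 96.9, 91.7 and 116 in control and 394, 215 and 799 after CFA. When the log2 striatal sum entered a model of the 9 BNST libraries as a covariate, an alternative chosen after seeing the data, 0 members and 3 of all genes were called after CFA. The estimates then were −1.97 for Kcnh4 (adjusted p = 0.069), −1.25 for Kcnip2 (adjusted p = 0.079), −0.39 for Kcnj4 (adjusted p = 0.48) and 1.80 for Kcng4 (adjusted p = 0.24). Most of the 15 falls were smaller than without the covariate. Some were larger, among them those of Kcng3 (−3.02), Kcnt1 (−1.49) and Kcnd1 (−0.99). Since the striatal sums of CFA and control libraries did not overlap, group and striatal content cannot be told apart.

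**Figure D3:**
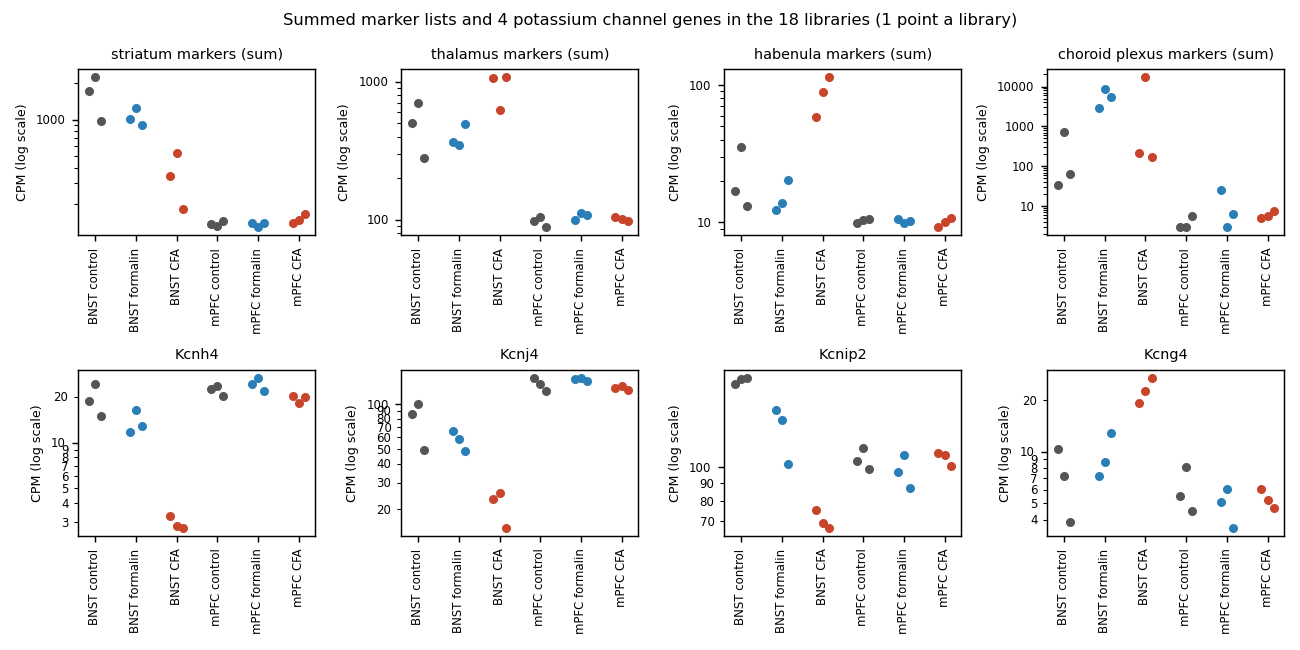
Summed CPM of 4 lists of marker genes (upper row) and CPM of Kcnh4, Kcnj4, Kcnip2 and Kcng4 (lower row) in the 18 libraries, 1 point a library, on log axes. In the BNST after CFA the striatal sum lies at 181 to 524 CPM and Kcnh4 at 2.72 to 3.31 CPM, both below all other BNST libraries.

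The bases before the start sites of called genes are shown for a few of the members that changed in this comparison, and RefSeq promoter windows (GRCm38.p6) were at hand for 56 of the 80 members, among them 9 that fell and 5 that rose. Printed 5′ to 3′ on the gene's strand are the 250 bases upstream of 3 genes that fell and of Kcng4, which rose, with matches to any searched motif in capitals.
Kcng3, chr17:83631896-83632145, minus strand: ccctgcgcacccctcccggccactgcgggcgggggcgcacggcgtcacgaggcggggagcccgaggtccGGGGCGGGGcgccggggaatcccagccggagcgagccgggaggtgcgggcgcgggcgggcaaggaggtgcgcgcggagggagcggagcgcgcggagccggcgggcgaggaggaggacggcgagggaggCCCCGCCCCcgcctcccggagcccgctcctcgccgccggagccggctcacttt
Kcnj2, chr11:111065914-111066163, plus strand: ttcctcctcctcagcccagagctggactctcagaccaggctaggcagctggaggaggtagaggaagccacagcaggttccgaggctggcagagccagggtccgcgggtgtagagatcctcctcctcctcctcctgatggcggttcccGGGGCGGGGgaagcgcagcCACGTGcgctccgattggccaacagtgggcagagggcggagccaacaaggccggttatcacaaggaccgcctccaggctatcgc
Kcnip2, chr19:45816064-45816313, minus strand: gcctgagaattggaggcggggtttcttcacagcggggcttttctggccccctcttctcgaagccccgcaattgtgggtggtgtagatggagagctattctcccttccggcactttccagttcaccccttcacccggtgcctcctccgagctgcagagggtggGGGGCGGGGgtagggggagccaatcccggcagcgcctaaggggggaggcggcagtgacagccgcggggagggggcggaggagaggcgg
Kcng4, chr8:119635681-119635930, minus strand: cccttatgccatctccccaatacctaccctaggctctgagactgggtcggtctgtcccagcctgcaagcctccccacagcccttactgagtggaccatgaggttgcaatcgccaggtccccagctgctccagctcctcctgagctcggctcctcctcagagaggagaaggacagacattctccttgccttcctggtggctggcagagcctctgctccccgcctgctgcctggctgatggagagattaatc

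Searched on both strands were the cAMP response element TGACGTCA, the E-box CACGTG, the EGR site GCGTGGGCG, the GC box GGGGCGGGG, the AP-1 site TGACTCA and the palindromic glucocorticoid response element, and no printed match overlaps another. Kcng3 has GC boxes on each strand, Kcnj2 an E-box and a GC box, Kcnip2 a GC box and Kcng4 no match. All 3 printed genes that fell thus have a GC box, and they do not stand for the 9. A GC box was present in 11 of 56 members (19.6%) and in 10.5% of 27025 promoters, with 4 of the 9 that fell and 0 of the 5 that rose. An E-box was present in 5 of 56 members (8.93%) and in 6.05% of promoters, with 3 of the 9 and 0 of the 5. The AP-1 site was found in 1 member (1.79%) and in 4.43% of promoters. The other 3 motifs were found in no member. They are rare in all promoters, at 1.62% for the cAMP response element, 0.54% for the EGR site and 0.0037% for the glucocorticoid response element. The median GC content of the window was 61.4% in the members, 65.6% in the 9 that fell, 47.2% in the 5 that rose and 52% in all promoters. These matches are letters in a window and were not tested as sites.

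In the mPFC after CFA, 0 of 79 members were called, where 0.632% of all genes were. An unadjusted p under 0.05 was found for 7 members and for 2614 of all 18994 genes, a smaller share of the members. DESeq2 called 1 member, Kcnk13. The lowest and highest estimates were −1.06 (Kcnn4, 1 to 4 counts a library in control) and 0.63 (Kcnk13, adjusted p = 0.07). Kcnk13 measured 3.47, 4.05 and 4.96 CPM in control and 6.56, 6.28 and 6.44 CPM after CFA without overlap. Kcnip3, a calcium-binding subunit that also acts as a transcriptional repressor, measured 149, 157 and 134 CPM in control and 206, 193 and 207 CPM after CFA, again without overlap, and its change of 0.46 (adjusted p = 0.029) fell short of the minimum.

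The change after CFA differed between the regions in 16 of 79 members, tested as an interaction, where 4.17% of all genes were called. For 15 of them the BNST change was the lower (3.02% of all genes) and for Kcng4 the higher (1.15%). The differences, BNST change minus mPFC change on the log2 scale, were −2.54 ± 0.23 (SE) for Kcnh4 (adjusted p = 1.4e-05), −1.90 ± 0.43 (SE) for Kcng3, −1.78 ± 0.31 (SE) for Kcnj4, −1.78 ± 0.24 (SE) for Kcnh3 and −1.71 ± 0.26 (SE) for Kcnj2. Kcnab1 (−1.58), Kcng1 (−1.54), Kcnv1 (−1.43), Kcnip2 (−1.36) and Kcnq5 (−1.25) followed. Smaller differences included those of Kcnk2 (−0.96), Kcna4 (−0.76), Kcnt1 (−0.73) and Kcnip3 (−0.60).

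For Kcnh4 the mPFC libraries held 22.6, 23.6 and 20.2 CPM in control and 20.4, 18.3 and 20.1 CPM after CFA, overlapping, beside the fall in the BNST. Kcnab1 held 83.2, 73.5 and 71.7 CPM in mPFC control and 94.6, 103 and 99.4 CPM after CFA, so that its mPFC libraries lay higher after CFA where the BNST libraries lay lower. Kcng1 was at 46.5, 41.3 and 38.5 CPM in mPFC control and 47.7, 51.9 and 59.7 CPM after CFA, also higher. Neither mPFC change was called. Kcnip3 had 76.9, 86.8 and 76.6 CPM in BNST control and 80.8, 59.1 and 79.5 CPM after CFA, which overlapped. Kcng4 (1.86 ± 0.44 (SE), adjusted p = 0.023) had overlapping mPFC groups of 5.52, 8.15 and 4.47 CPM and 6.09, 5.23 and 4.70 CPM. Calls near the threshold were lost when single libraries were left out, for Kcnv1 in 15 of 18 cases, for Kcna4 in 14, for Kcnt1 in 8, for Kcng4 in 3 and for Kcnip3 in 2. With the animal number as a block 14 were called, and Kcng3 (adjusted p = 0.08), Kcnv1 (adjusted p = 0.071) and Kcna4 (adjusted p = 0.081) were not. In lane 2 alone 29 were called, 16 of them with the higher change in the BNST. The mPFC libraries held 127 to 164 CPM of striatal markers in all groups.

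The other genes with a region difference had no called change after CFA in the mPFC. Kcnh3 had 221, 223 and 208 CPM after CFA in the mPFC, where control held 225, 239 and 196 CPM. Kcnj4 had 149.6, 136 and 123 CPM in mPFC control and 128, 132 and 124 CPM after CFA. Kcnj2 had 20.2, 17.04 and 15.4 and 21.7, 21.04 and 16.7 CPM. None of these 3 inward rectifier and ether-a-go-go genes had a log2 fold change past 0.5 in either direction in the mPFC (−0.02, −0.09 and 0.17). Of the silent subunits, Kcng3 had 7.99, 7.65 and 6.59 CPM in mPFC control and 7.62, 6.68 and 7.15 CPM after CFA, and Kcnv1 130.3, 129 and 102 and 128, 109.9 and 102 CPM. Kcnip2 had 104, 114 and 99.3 and 110.2, 108 and 101 CPM, and Kcna4 25.8, 22.4 and 21.6 and 23.3, 21.3 and 18.5 CPM. Their mPFC estimates were −0.05, −0.09, 0.01 and −0.15. Kcnq5 had 137, 138 and 112 CPM in mPFC control and 115, 126 and 117 CPM after CFA (log2 fold change −0.11). Kcnk2 had 42.03, 41.1 and 32.8 and 34.9, 34.6 and 35.9 CPM (log2 fold change −0.14), and Kcnt1 had 213, 239 and 212 and 194, 205 and 197 CPM (log2 fold change −0.16). Every adjusted p of these 10 genes in the mPFC was above 0.05.

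**Figure D4:**
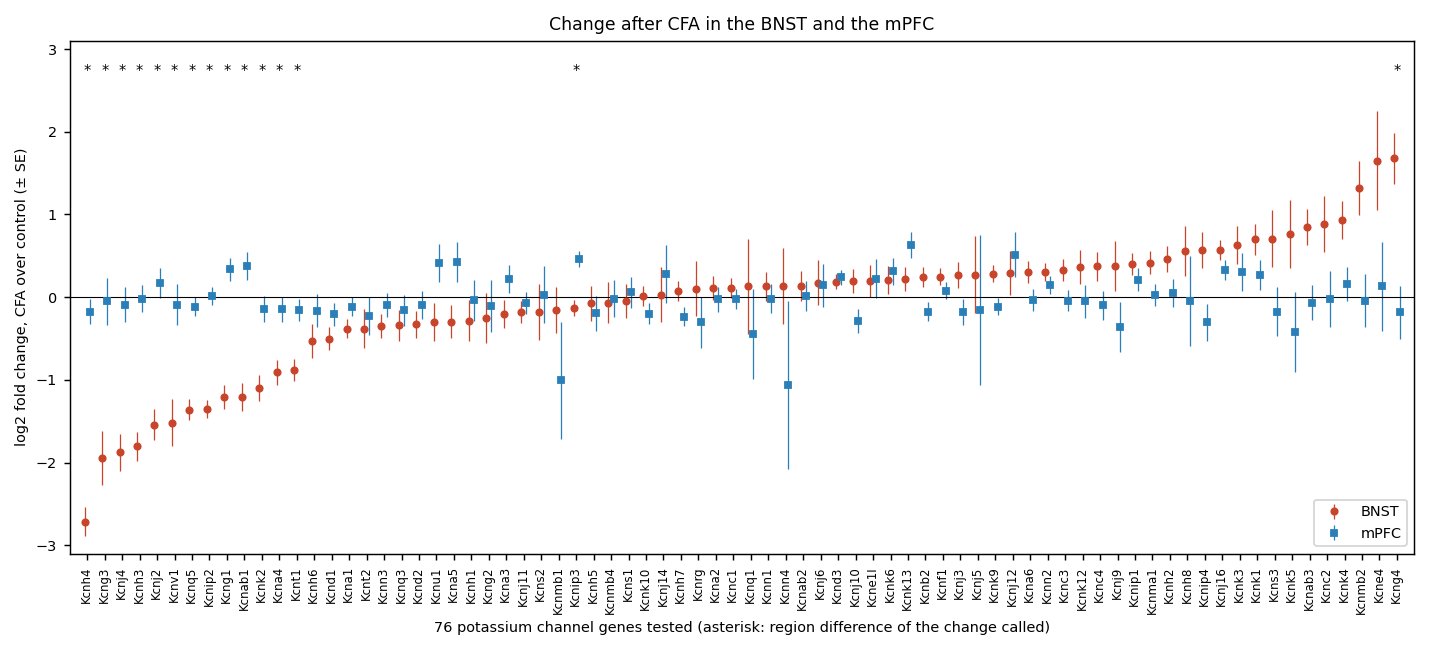
Log2 fold change, CFA over control, of 76 of the 79 tested potassium channel genes in the BNST (circles) and the mPFC (squares), with bars of ± 1 SE from the model of 18 libraries, ordered by the BNST value. Asterisks mark genes whose change differed between regions, 15 of those shown, 13 of them at the left end, where the BNST values run down to −2.72 for Kcnh4.

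After formalin, 0 of 79 members were called in the BNST, where 0.3% of all genes were. An unadjusted p under 0.05 was found for 25 members and for 3726 of all 18994 genes, a larger share of the members. DESeq2 called 4 members (Kcna3, Kcna4, Kcnab1 and Kcnj2, all lower). The median log2 fold change was −0.19 over the members and −0.04 over all genes, with 52 members below 0 and 27 above. Kcnj2 had the lowest estimate, −0.69 ± 0.18 (SE) (adjusted p = 0.087). Kcnip2 had the smallest p, with 147, 137 and 102 CPM against 175, 180.3 and 182 CPM in control and no overlap (log2 fold change −0.48, SE 0.11, adjusted p = 0.057). Kcna3, a Shaker-type channel of neurons and immune cells, was at 14.7, 14.7 and 10.03 CPM in control and 6.60, 9.32 and 10.1 CPM after formalin, where replicate 3 just overlapped (log2 fold change −0.60). Libraries of formalin and control did not overlap in 13 members (16.5%) and in 22.4% of all genes. Summed choroid plexus markers (0 of 7 called) and oligodendrocyte markers (0 of 5 called) lay above control in every formalin library, the latter at 8814 to 10918 CPM against 6051 to 8685 CPM. Of the 5 astrocyte markers Aqp4 was called higher (log2 fold change 0.58, adjusted p = 0.049), and Gfap, which was not called, had 326, 239.9 and 244 CPM against 107, 96.0 and 152 CPM in control without overlap. The part of these markers in the channel values was not tested.

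This comparison depended on BNST control replicate 3, the control of lane 2, without which 12 members were called, all lower (Kcna3, Kcna4, Kcnab1, Kcnd2, Kcnh3, Kcnh4, Kcnj2, Kcnj4, Kcnj9, Kcnj12, Kcnk2 and Kcnq3). The share of all genes called in that fit is not given here, so the 12 cannot be set against it. Leaving out CFA replicate 2 gave 5 and CFA replicate 3 gave 2. With lane 2 alone, 4 were called, Kcng3 and Kcnt2 lower and Kcnab3 and Kcnh2 higher, from 1 control library. With the replicate number as a block there were 2, Kcna4 and Kcnj2. Over the 15 genes that fell after CFA, the estimates after formalin ran from −0.69 to −0.30, and both comparisons use the same 3 control libraries. The formalin change differed between regions in 0 members (0.158% of all genes). Its unadjusted p was under 0.05 for 15 members and for 2779 of all 18994 genes, a larger share of the members. DESeq2 called 1 member, Kcnab1.

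Formalin and CFA differed in the BNST in 19 of 79 members, 12 higher and 7 lower after formalin, where 6.87% of all genes were called, 3.91% higher and 2.96% lower. The members' shares were 15.2% and 8.86%. The 12 higher members were Kcnh4 (2.22 on the log2 scale, formalin over CFA), Kcng3 (1.56), Kcnj4 (1.44), Kcnh3 (1.40), Kcnv1 (1.19), Kcnq5 (0.98), Kcnip2 (0.87), Kcnj2 (0.85), Kcng1 (0.74), Kcnk2 (0.71), Kcnab1 (0.59) and Kcnt1 (0.50). None of these overlapped between the groups, where 29 members (36.7%) and 32.1% of all genes did not. After formalin Kcnv1 stood at 34.3, 20.6 and 14.1 CPM, Kcng1 at 23.4, 23.96 and 17.5 CPM, Kcnk2 at 58.3, 47.2 and 49.7 CPM, Kcnab1 at 146, 127 and 109 CPM and Kcnt1 at 134, 157 and 143 CPM. Kcna4 (37.2, 37.5 and 30.6 CPM after formalin) was not called here (adjusted p = 0.25). Beside them, 6 of 8 striatal markers were called higher and 6 of 6 habenular markers lower after formalin.

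Of the 7 genes lower after formalin, Kcng4 (log2 fold change −1.26, SE 0.30, adjusted p = 0.012) and Kcnj16 (log2 fold change −0.86, SE 0.12, adjusted p = 0.00036) were at 7.25, 8.67 and 12.8 CPM and at 20.03, 23.3 and 24.7 CPM in the formalin libraries. Neither overlapped the CFA libraries. The other 5 were not called between CFA and control. Kcnip1 had 27.3, 27.05 and 35.9 CPM after formalin and 52.98, 44.3 and 54.5 CPM after CFA (log2 fold change −0.75, SE 0.13, adjusted p = 0.0016), with the control libraries at 42.1, 32.3 and 40.7 CPM. Kcnip4, a further partner of Kcnd channels, had 34.8, 36.3 and 45.2 and 71.7, 46.1 and 83.9 CPM (log2 fold change −0.79), and Kcnc4 had 24.8, 32.04 and 39.6 and 56.7, 43.2 and 65.9 CPM (log2 fold change −0.78). In these 3 genes formalin and CFA did not overlap. Kcnj12, a strong inward rectifier, had 13.4, 14.6 and 20.4 and 28.9, 21.3 and 37.1 CPM (log2 fold change −0.85, adjusted p = 0.047). The acid-sensitive leak channel Kcnk3 had 12.3, 14.4 and 19.8 and 35.04, 19.8 and 35.4 CPM (log2 fold change −0.95), overlapping at CFA replicate 2. Without single libraries 13 to 25 members were called, and fits of the 9 BNST libraries or of the 6 compared called 8 and 11. The glmTreat test called 5 and the model with the striatal covariate 0. The call of Kcnj12 was lost in 14 of 18 cases when 1 library was left out.

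In the mPFC, formalin and control differed in 0 of 79 members, where 0.269% of all genes were called, and in 0 by DESeq2. An unadjusted p under 0.05 was found for 4 members and for 2677 of all 18994 genes, a smaller share of the members. Kcnt1 had the smallest p, with 213, 239 and 212 CPM in control and 162, 171 and 138 CPM after formalin and no overlap (log2 fold change −0.49, SE 0.13, adjusted p = 0.097). Formalin and CFA also differed in 0 members there (0.932% of all genes), and in 2, Kcnip4 and Kcnk13, by DESeq2. The unadjusted p was under 0.05 for 10 members and for 2927 of all genes, again a smaller share of the members. Kcnip4 measured 69.4, 70.6 and 79.1 CPM after formalin and 43.1, 48.1 and 42.7 CPM after CFA, apart in every library (log2 fold change 0.71, SE 0.22, adjusted p = 0.12). Fits with the mPFC libraries alone called Kcnip4 (0.71, adjusted p = 2.8e-06) and Kcnk13 (−0.57, adjusted p = 0.04) between formalin and CFA, and Kcnk13 (0.62, adjusted p = 0.03) and Kcnj12 (0.51, adjusted p = 0.0037) after CFA.

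Proteins without a Kcn symbol also join these channels, and a list of 12 such genes was examined, of which 10 were tested. Lrrc55, a gamma subunit of BK channels, was called higher in the BNST after CFA (log2 fold change 0.98, SE 0.19, adjusted p = 0.0025), lower after formalin than after CFA (log2 fold change −1.36, SE 0.20, adjusted p = 0.00063), and different between regions in its CFA change (log2 fold change 1.42, SE 0.28, adjusted p = 0.0076). It was the only partner called in any comparison within a region. Its control libraries held 37.0, 31.7 and 35.3 CPM and its CFA libraries 43.0, 74.0 and 87.3 CPM, without overlap. Between the control regions, Cntnap2, which anchors Kcna channels beside the node of Ranvier, was higher in the BNST (log2 fold change 0.57), while the KATP channel subunits Abcc8 (−1.09) and Abcc9 (−0.63) and the Kcnd partner Dpp10 (−0.50) were lower. The A-type partner Dpp6 was not called in any of the 9 comparisons.

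The strand setting of the counting was not given in the sources used here, and 25 members share exon bases with another annotated gene. The overlap covered 39.6% of the exon bases of Kcna6 and 31.1% of Kcnj3, both with a gene on the opposite strand. Among the genes called after CFA it was 13.1% for Kcnk4, with Catsperz on the same strand, 12.2% for Kcnk2 and 8.01% for Kcnk1. Depending on the counting settings, levels of these genes may hold reads of their neighbours or miss reads from the shared bases.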

How the data were processed

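Polyadenylated RNA of dissected BNST and prelimbic mPFC was sequenced as 150 bp reads. The deposited values are raw counts per gene, which the authors made, per the labels and the study's methods, with Trimmomatic 0.39, HISAT2 2.2.1 on GRCm38, SAMtools and featureCounts 2.0.1, and the strand setting of the counting is not given in the sources used here. All 18 columns were used. Libraries held 14781315 to 23408503 counts. Symbols, gene types, positions and union exon lengths for TPM came from GENCODE M21, where 260 identifiers had no symbol and 6 members were matched without the version of their identifier.

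Groups came from the labels. Genes kept by edgeR's filterByExpr (minimum count 10, total 15; 18994 genes) were fitted in 1 model of the 6 groups with TMM factors and edgeR's robust quasi-likelihood test (edgeR 4.0.16, limma 3.58.1, R 4.3.3; 12 residual degrees of freedom), and the calls required 0.05 for the Benjamini-Hochberg adjusted p and 0.5 for the absolute log2 fold change. The 9 comparisons were 3 in each region, the regions of control mice, and the change after CFA or formalin in the BNST minus that in the mPFC. P-values rest on the spread between brains within groups, pooled over the 6 groups of both regions in 1 model. The members and the lists of partners and markers were chosen with earlier results of these data known.

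Values in every library are given for up to 12 higher and 12 lower called members of a comparison, by size of change, provided that the higher group averaged 5 CPM or more. They are also given for members called in a region difference, where not already shown, and other called members are given by fold change. Some members enter every count but are not reported individually here. Members such as Kcna3, Kcnk13 and Kcnip3 in comparisons without calls were named after their values were seen. The code was tested on simulated counts. Alternatives were DESeq2 1.42.0, limma-voom, RLE factors, other filters, fewer libraries in the model, lane 2 alone, blocks for replicate or animal number, other uses of the minimum change, each library left out, and a striatal covariate. Lanes and animal numbers were read from column names of the study's supplementary tables, joined to the libraries by equal counts over 367 genes. Promoter windows and figures were made with Python 3.11.15 and pandas 2.3.3. Columns of the authors' own comparisons were not used.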

Additional observations from a re-analysis of the deposited data

Results flagged for a closer look

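The change after CFA differed between BNST and mPFC in 16 potassium channel genes, by the interaction term of edgeR's quasi-likelihood test with Benjamini-Hochberg adjustment. The values are the log2 fold change after CFA in the BNST minus that in the mPFC. Among ether-a-go-go and silent subunit genes they were Kcnh4 (−2.54, adjusted p = 1.4e-05), Kcnh3 (−1.78, adjusted p = 0.00037), Kcng3 (−1.90, adjusted p = 0.017), Kcng1 (−1.54, adjusted p = 0.00023), Kcnv1 (−1.43, adjusted p = 0.045) and Kcng4 (1.86, adjusted p = 0.023). Among inward rectifiers, leak and sodium-activated channels they were Kcnj4 (−1.78, adjusted p = 0.0038), Kcnj2 (−1.71, adjusted p = 0.00079), Kcnk2 (−0.96, adjusted p = 0.017) and Kcnt1 (−0.73, adjusted p = 0.034). Among M-current and A-type channels and auxiliary subunits they included Kcnq5 (−1.25, adjusted p = 0.00031), Kcna4 (−0.76, adjusted p = 0.047), Kcnab1 (−1.58, adjusted p = 0.00084), Kcnip2 (−1.36, adjusted p = 7e-05) and Kcnip3 (−0.60, adjusted p = 0.016). Striatal markers were lower after CFA in the BNST libraries (181 to 524 CPM against 980 to 2269 CPM in control) and lay between 127 and 164 CPM in all mPFC libraries, and their part in these differences was not tested within the interaction model.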

How the results depend on the processing

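Each of 106 calls of single members was examined under the alternatives, and of 3114 pairs of a call and an alternative 2853 kept the call, 261 lost it and 0 changed sign. DESeq2 called 4 members after formalin in the BNST, 1 after CFA in the mPFC, 2 between formalin and CFA in the mPFC and 1 in the region difference of the formalin change, where edgeR called 0 each time. Without a filter on low counts 1 was called after formalin in the BNST. With the libraries of the region only, counts were 8 between formalin and CFA in the BNST, and 2 after CFA and 2 between formalin and CFA in the mPFC. With the libraries of the groups compared only they were 11, 2 and 2. Lane 2 alone gave 4 after formalin and 38 after CFA in the BNST, 1 between formalin and CFA in the mPFC, and 29 and 4 for the region differences of the CFA and formalin changes. Without a minimum change 1 was called after CFA and 1 between formalin and CFA in the mPFC, and glmTreat gave 12 after CFA and 5 between formalin and CFA in the BNST and 8 for the region difference of the CFA change. The striatal covariate left 0 after CFA and 0 between formalin and CFA in the BNST. Leaving out 1 library at a time gave 21 to 26 after CFA, 13 to 25 between formalin and CFA and 0 to 12 after formalin in the BNST, 0 to 0 after formalin, 0 to 1 after CFA and 0 to 2 between them in the mPFC, 48 to 51 between regions, and 12 to 17 and 0 to 2 for the region differences of the CFA and formalin changes. BNST control replicate 3 gave the highest value in the cases of 12, 1, 2 and 2. Between formalin and CFA in the BNST single libraries ended the calls of Kcnj12 in 14 of 18 cases, of Kcnab1, Kcnk3 and Kcnip4 in 4 each, of Kcnt1 in 3 and of Kcng4 and Kcnv1 in 2 each. The causes were not tested. Other counts stayed within 1.5 times the reported ones. Apart from the striatal covariate after CFA, these counts are given without the share of all genes called in the same fit. They do not show whether the members stood out.

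Same-numbered replicates did not deviate together (correlations of −0.19 to 0.31, above 0.1 in 4 of 18 pairs), so the numbers were not taken as pairs. With the replicate number as a block, 2 members were called after formalin in the BNST (Kcna4, adjusted p = 0.046, and Kcnj2, adjusted p = 0.045, edgeR's quasi-likelihood test), 22 after CFA, 18 between formalin and CFA, 0 in each mPFC comparison, 50 between regions, and 15 and 0 for the region differences. Samples of the same animal number correlated at −0.03 to 0.17, above 0.1 in 2 of 8 pairs, and the animal block gave 48, 14 and 0 in the comparisons between regions.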
